A study of Mus musculus with 68 samples.

Results

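Mammary tumours were divided by their level of AI506816, a long non-coding RNA gene on chromosome 5, and all other genes were compared between both sides. The tumours arose in mice that carried the MMTV-PyMT transgene, in which a viral promoter active in mammary epithelium drives the polyoma virus middle T oncogene. Hybrids of NZB and PyMT mice had been crossed back to FVB to give all animals, and the labels give no age, treatment or genotype by locus. Of 68 arrays from 66 animals, 56 arrays from 56 animals had a mean of the 18S ribosomal RNA control probe sets below 8 (log2) and were kept. The sides were chosen by the measured AI506816 level itself, read by its 1 probe set: 28 of these 56 tumours lay above 8.1 and 28 at 8.1 or below. Both sides shared strain background, transgene and tissue. The sides are putative genotypes at this part of chromosome 5. If the PyMT line is on FVB, one side would be FVB on both chromosomes and the other NZB on one and FVB on the other, and the data do not show which is which.

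In a backcross, each animal inherits long unbroken stretches of either parental chromosome. A gene whose level depends on a sequence difference beside it, called a local or cis effect, therefore falls into levels that follow the local genotype, and neighbouring genes with such effects follow the same animals until recombination parts them. A gene elsewhere in the genome that follows the same animals would be a distant or trans effect. Most of what is known of AI506816 is its annotation as a non-coding RNA. Near it lie Pus7, an enzyme that converts uridine to pseudouridine in RNA, Fastk, a regulator of mitochondrial RNA, and Galnt11, an enzyme that starts O-linked sugar chains on proteins.

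The reference sequences around the start sites of AI506816 and of the 3 genes with the smallest adjusted p are shown because these genes differed together between tumours. Each runs from 250 bases before to 50 bases after the start, 5′ to 3′ on the gene's strand, from RefSeq on GRCm38.p6. They are C57BL/6J sequence, not that of NZB or FVB. Capitals mark the letters GGGCGG or its reverse complement CCGCCC, known as a GC box. The intervals are chr5:23712618-23712917 (minus strand) for AI506816, chr5:25222622-25222921 (plus) for Galnt11, chr5:37735269-37735568 (plus) for Cytl1 and chr5:23783662-23783961 (minus) for Pus7. Where the table lists 2 starts, for Galnt11 and Pus7, the first is given.
AI506816: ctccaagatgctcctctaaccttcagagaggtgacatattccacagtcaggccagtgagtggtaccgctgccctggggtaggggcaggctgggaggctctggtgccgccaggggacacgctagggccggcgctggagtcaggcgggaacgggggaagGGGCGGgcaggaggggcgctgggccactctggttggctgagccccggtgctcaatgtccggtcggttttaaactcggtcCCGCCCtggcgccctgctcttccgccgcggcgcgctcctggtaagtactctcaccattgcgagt
Galnt11: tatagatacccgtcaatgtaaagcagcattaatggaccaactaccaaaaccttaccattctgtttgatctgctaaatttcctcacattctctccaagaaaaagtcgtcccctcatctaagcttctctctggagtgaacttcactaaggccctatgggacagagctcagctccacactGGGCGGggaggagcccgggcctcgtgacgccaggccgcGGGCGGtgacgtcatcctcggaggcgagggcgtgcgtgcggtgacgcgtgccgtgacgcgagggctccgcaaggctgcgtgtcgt
Cytl1: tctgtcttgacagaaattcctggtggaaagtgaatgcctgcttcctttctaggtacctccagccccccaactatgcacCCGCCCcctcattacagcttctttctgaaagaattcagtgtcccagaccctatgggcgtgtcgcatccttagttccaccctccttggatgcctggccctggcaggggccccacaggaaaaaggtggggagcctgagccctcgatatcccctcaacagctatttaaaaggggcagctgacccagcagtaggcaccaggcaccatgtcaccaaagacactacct
Pus7: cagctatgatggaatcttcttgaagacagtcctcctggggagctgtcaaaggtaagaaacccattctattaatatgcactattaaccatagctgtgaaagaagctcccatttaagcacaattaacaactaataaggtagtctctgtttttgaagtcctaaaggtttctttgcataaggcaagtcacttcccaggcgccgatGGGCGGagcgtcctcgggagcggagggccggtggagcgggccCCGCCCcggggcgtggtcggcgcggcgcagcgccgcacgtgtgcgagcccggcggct
The AI506816 stretch holds 21 CG dinucleotides and 2 GC boxes, the Pus7 stretch 21 and 2, and the Galnt11 stretch 23 and 2. Cytl1 has 4 CG dinucleotides and 1 GC box in its stretch. Over 27025 such stretches, 1 per gene, the median was 7 CG dinucleotides, and 35.9% held the GC box letters on either strand. A match is a description of the reference letters only.

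AI506816 lay between 8.33 and 9.36 (log2 RMA value) with a median of 8.65 in the 28 tumours of the upper side. In the 28 tumours of the lower side it lay between 7.12 and 8.07 with a median of 7.72. These values chose the groups and are not a result. The 4 values just inside the upper side were 8.33, 8.37, 8.39 and 8.44, and the 4 just inside the lower side were 8.07, 8.05, 8.02 and 8.01. The gap between the sides was 0.26, about the size of the SD within a side (0.23 above, 0.24 below). Over all kept arrays, the 2 levels are therefore close together.

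Sets of arrays, unnamed in the labels, were found as splits shared by many probe sets on many chromosomes. Array set 1 held 39 of the 56 arrays (19 on the upper side), array set 3 held 9 (6) and array set 4 held 8 (3). The 12 arrays left out, with 18S means of 8.97 or more, are array set 2. In array set 4 both sides stood higher, with a mean of 9.18 ± 0.21 (SD, n = 3) above and 7.95 ± 0.20 (n = 5) below, against 8.59 ± 0.15 (n = 19) and 7.66 ± 0.24 (n = 20) in array set 1. Array set was therefore a term of the main fit. Measures of RNA and array quality were close between sides, with an 18S mean of 5.87 ± 0.33 above and 5.93 ± 0.46 below and a Gapdh 3′ minus 5′ difference of -0.06 ± 0.13 and -0.04 ± 0.14 (n = 28 each). Of arrays whose label bears the suffix R, 5 were on the upper and 3 on the lower side.

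**Figure D1:**
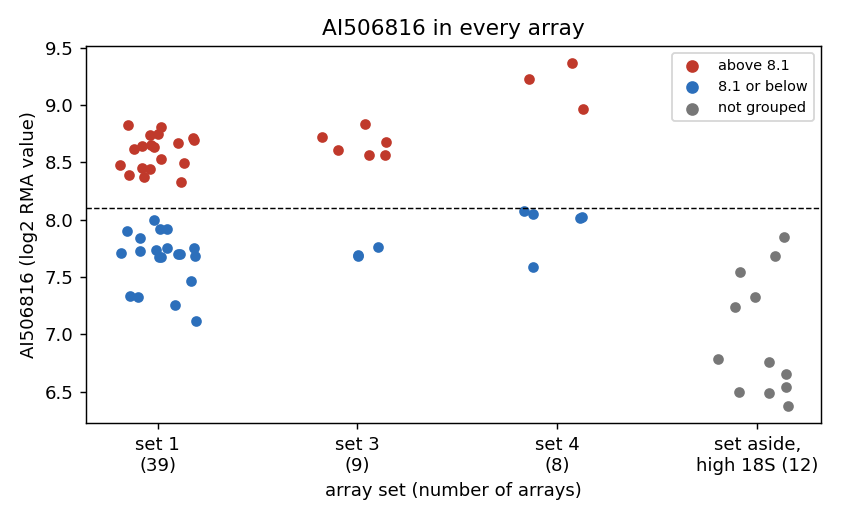
AI506816 (log2 RMA value, vertical axis) in each of the 68 arrays by array set, 1 point per array, with the threshold of 8.1 dashed. With array sets pooled, the sides of the kept arrays meet closely at the threshold. Array set 4 stands higher on both sides, and the 12 arrays left out all lie below 8.1.

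Between the sides, 6 genes differed, and all 6 lie on chromosome 5. They were 0.0478% of the 12561 genes tested (limma, Benjamini-Hochberg adjusted p below 0.05, AI506816 itself left out). Pus7, Fastk, 5730480H06Rik and Insig1 were higher where AI506816 was high (0.0318% of genes were called higher), and Galnt11 and Cytl1 were lower (0.0159% were called lower). With quantile normalization repeated over the 56 arrays, 2 were called higher and 2 lower. All 6 lie within 25 Mb of AI506816, on the same side of it by coordinate, at 0.0595 Mb for Pus7, 0.741 Mb for Fastk, 1.54 Mb for Galnt11, 4.37 Mb for Insig1, 14.04 Mb for Cytl1 and 24.7 Mb for 5730480H06Rik on GRCm38.p6. Every one of these differences kept its direction in each array set and under each alternative that tested the gene.

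Pus7, the nearest of the 6 genes, ranged from 8.56 to 9.68 with a median of 8.84 (log2) in tumours with high AI506816. With low AI506816 it ranged from 8.02 to 8.85 with a median of 8.56. The ranges overlap, but 12 of the 28 high tumours lay above every low tumour. Pus7 was 0.36 ± 0.06 higher on the log2 scale (SE, n = 28 and 28, limma adjusted p = 0.000136), which is 1.28-fold. The highest Pus7 values were in array set 3, where the mean was 9.41 above and 8.68 below.

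Fastk ranged from 7.27 to 8.11 (median 7.81) with high AI506816 and from 7.10 to 8.14 (median 7.64) with low AI506816. Both sides covered almost the same span, and the difference was one of their centres, 0.25 ± 0.05 (SE, limma adjusted p = 0.0174) or 1.19-fold. Fastk is the weakest supported of the 6 beside Insig1, since it passed in 10 of the 22 alternatives that tested it.

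Galnt11 was lower where AI506816 was high and had the smallest p of all genes. It ranged from 6.63 to 7.14 (median 6.89) in the high tumours and from 6.93 to 7.59 (median 7.12) in the low tumours. Of the high tumours, 20 lay below every low tumour. The difference was -0.28 ± 0.04 (SE, limma adjusted p = 3.60e-06), or 1.22-fold lower with high AI506816.

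Insig1 encodes a membrane protein of the endoplasmic reticulum that holds back the activation of cholesterol synthesis genes. It ranged from 7.30 to 8.38 (median 7.67) with high AI506816 and from 6.63 to 8.02 (median 7.25) with low AI506816. Of the low tumours, 15 lay below every high tumour. The difference was 0.41 ± 0.09 (SE, limma adjusted p = 0.0396), or 1.33-fold, and it passed in 11 of 22 alternatives.

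Cytl1, a small secreted protein first described in blood-forming cells, had the largest difference of the 6 genes. It ranged from 4.44 to 7.11 (median 4.97) with high AI506816 and from 4.82 to 9.84 (median 6.23) with low AI506816. The low tumours spread widely, with an SD of 1.14 against 0.65, and 3 of them stood above 8 in the plot of the 6 genes. Cytl1 was -1.42 ± 0.22 different on the log2 scale (SE, limma adjusted p = 0.000136), or 2.68-fold lower with high AI506816. Its median with high AI506816 lay below the median of all values (5.42), so this fold rests on dim values on that side.

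5730480H06Rik, annotated as a long non-coding RNA, ranged from 5.83 to 6.52 (median 6.19) with high AI506816 and from 5.59 to 6.57 (median 5.89) with low AI506816. One low tumour had the highest value of all 56. The difference was 0.27 ± 0.05 (SE, limma adjusted p = 0.00311), or 1.20-fold, in the gene farthest from AI506816 among the 6.

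**Figure D2:**
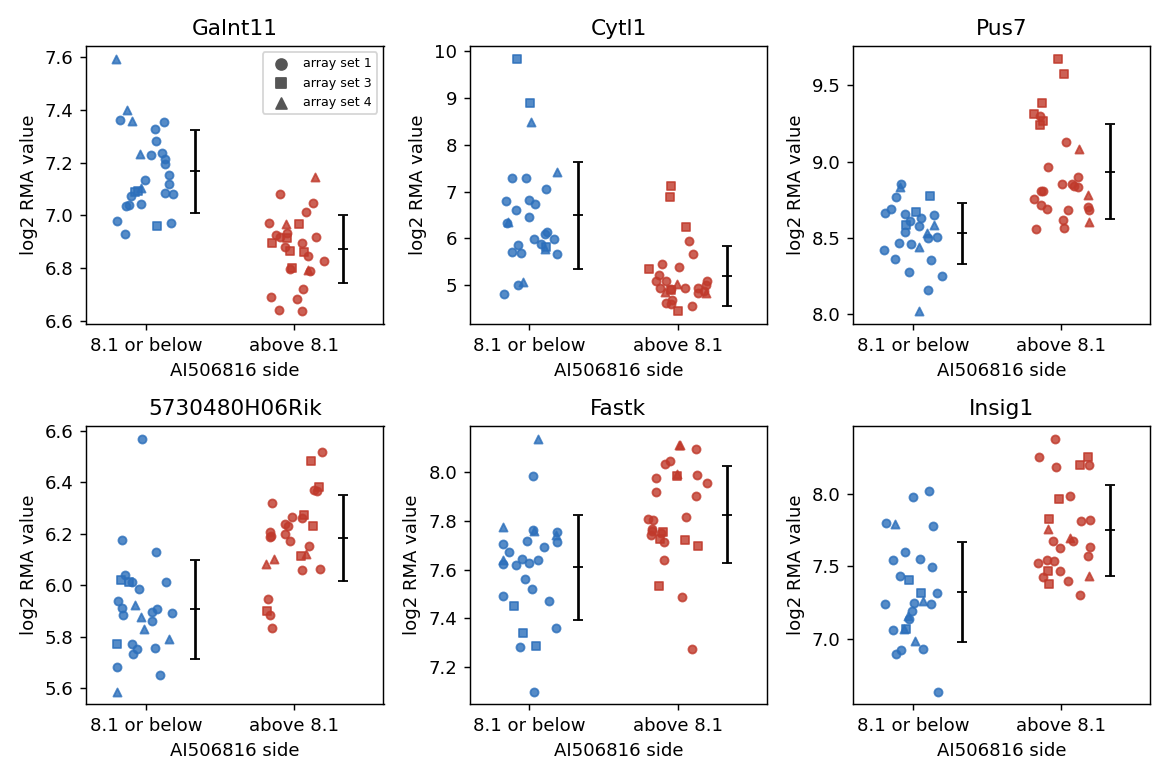
Log2 RMA values of the 6 genes called (vertical axes) in the 56 tumours by AI506816 side, 1 point per tumour with the marker showing its array set, and the mean ± SD of each side beside the points. The sides of Galnt11 and Pus7 overlap least, while those of Fastk cover nearly the same span.

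Within array sets the differences had the same direction in all 3 sets, while sizes varied between them. Cytl1 was -1.17 ± 0.17 (SE, n = 19 and 20) in array set 1, -2.36 ± 0.88 (n = 6 and 3) in array set 3 and -1.71 ± 0.68 (n = 3 and 5) in array set 4. Pus7 was 0.28 ± 0.06, 0.73 ± 0.11 and 0.34 ± 0.19 in the same order. Galnt11 was -0.29 ± 0.04, -0.16 ± 0.07 and -0.37 ± 0.13. Fitted alone, array set 1 called Galnt11 and Cytl1 (limma adjusted p = 0.000368 for both), and Pus7 did not pass there (0.0787). Array sets 3 and 4 alone called 0 genes by limma, with 1142 and 471 genes at an unadjusted p below 0.05.

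**Figure D3:**
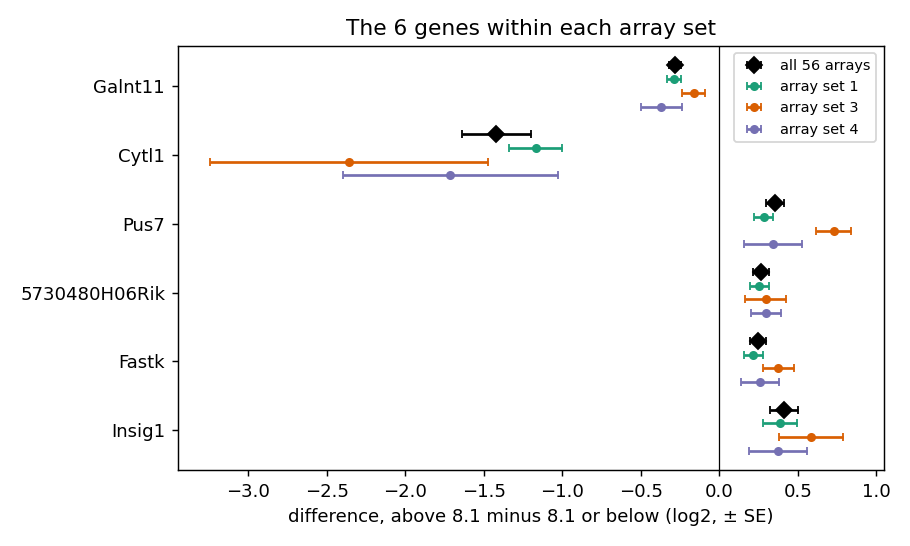
Difference between the AI506816 sides (log2, horizontal axis, bars ± SE) of the 6 genes over all 56 arrays, as black diamonds, and within array sets 1, 3 and 4, as coloured points. Galnt11 and Cytl1 lie left of 0 and the other 4 genes right of 0 in every set.

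The tumours divided by most of the 6 genes were largely those divided by AI506816, less so for Insig1. When a gene's values, centred within array sets, were split into 2 clusters by least squares, Galnt11 put 48 of 56 tumours (85.7%) on the side matching AI506816 and 5730480H06Rik put 46 (82.1%). Cytl1 matched in 45 tumours, Pus7 and Fastk in 44 each and Insig1 in 40 (71.4%). The median over all genes tested within 10 Mb was 57.1%, and over genes of other chromosomes 55.4%, with a highest value of 76.8% among 11779 genes. Insig1 lay below that highest value. In array set 1 alone the shares of the 6 genes ran from 61.5% for Fastk to 84.6% for Galnt11 and Cytl1. The median of genes within 10 Mb was 56.4% there. Each share counts the same or the opposite side, whichever held more tumours, so 50% is the lowest possible. These shares are descriptions, since the 6 genes were chosen for their difference. The method cuts any gene into 2 clusters, so a share does not show that its values fall into 2 levels. The cluster means of the 6 genes lay 2.51 (Pus7) to 3.17 (5730480H06Rik) root mean square SDs apart.

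All genes that passed lay within 25 Mb, whereas unadjusted p below 0.05 were more frequent than elsewhere up to 50 Mb. Within 10 Mb, 4 of 103 genes tested passed, and 17 had an unadjusted p below 0.05 (16.5%). At 10 to 25 Mb by lower coordinates 0 of 24 passed and 33.3% had such a p, and at 10 to 25 Mb by higher coordinates 2 of 65 passed and 18.5% did. At 25 to 50 Mb the share was 20.3% of 59 genes, at 50 to 75 Mb 9.88% of 81, at 75 to 100 Mb 8.06% of 211 and beyond 100 Mb 7.53% of 239. Genes of other chromosomes stood at 9.14%, so that the share was about that of the rest of the genome from 50 Mb on. Neighbouring genes are not independent of each other in a backcross.

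**Figure D4:**
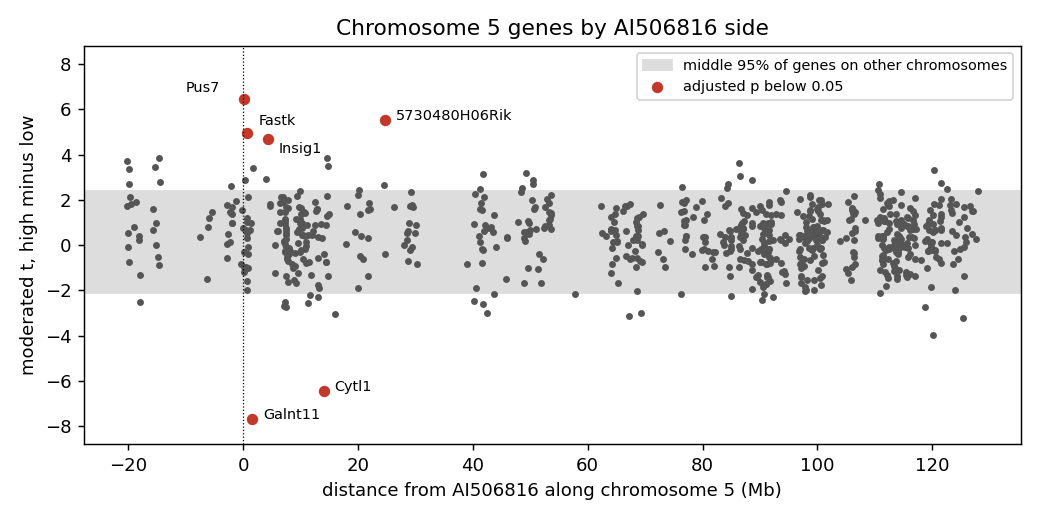
Moderated t of the difference between AI506816 sides (vertical axis, high minus low) for the 782 genes of chromosome 5 tested, against their distance from AI506816 in Mb. The 6 genes called are red and lie within 25 Mb, and the grey band covers the middle 95% of genes on other chromosomes.

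Single probe sets added 3 genes close by. When every probe set was tested by itself, 9 of 22027 passed (0.0409%), all on chromosome 5. They were the probe sets of the 6 genes and 1 each of 5031425E22Rik, Abcb8, an ATP-binding transporter of the mitochondrial inner membrane, and Nupl2, a nuclear pore protein, genes named after their values were seen. The probe set that passed was, for 5031425E22Rik, -0.37 ± 0.05 (SE, limma adjusted p = 2.12e-05), for Abcb8 0.35 ± 0.05 (8.77e-05) and for Nupl2 0.31 ± 0.05 (8.77e-05). The other tested probe sets of these genes did not pass, at -0.05 ± 0.05, 0.03 ± 0.06 and -0.03 ± 0.04 in that order, so each gene's probe sets disagreed. Of the 6 genes, all were tested by 1 probe set alone, and a second probe set of Galnt11 fell below the filter on dim values. Probe sequences were not analysed here. Whether a strain difference under a probe changed a measured value without a change in RNA level was therefore not tested.

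On the other chromosomes, 0 of 11779 genes passed in limma (0%), with 1077 at an unadjusted p below 0.05. The smallest p belonged to Crnkl1, a splicing factor gene on chromosome 2, chosen after its values were seen, at 0.16 ± 0.04 (SE, adjusted p = 0.151). The median SE was 0.052 and the 90th percentile 0.118, so small distant differences in variable genes may have gone undetected. Genes that fall into 2 levels at other loci of this cross were spread about evenly over the sides. Their shares count the same or the opposite side, so 50% is the lowest possible. BC018473 and St6galnac1 on chromosome 11, H2-Eb1 on chromosome 17, Rbm45 and Aqr on chromosome 2, Mir1931 on chromosome 10, Zfp979 on chromosome 4, Apobec3, D730005E14Rik and Amhr2 on chromosome 15, Ifi202b on chromosome 1 and Tnfsf13os on chromosome 11 divided 50% to 57.1% of tumours as AI506816 did, and 0 of these 12 passed.

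Hardly any gene of the lists for cell types and processes differed between the sides. Of 225 listed genes tested in 24 lists, 1 passed, Insig1 in the list for cholesterol synthesis, and 23 lists had 0. The median difference of all genes was 0.01, and 58.8% were above 0. Cell division genes leaned upward without passing. All 12 mitosis genes were above 0 with a median of 0.18, among them Mki67, a marker of dividing cells (0.18 ± 0.07, SE, limma adjusted p = 0.486), and Kif11, a spindle motor (0.25 ± 0.10, 0.491). All 13 DNA replication genes were above 0 with a median of 0.15, such as Gins1, a subunit of the replicative helicase (0.29 ± 0.09, 0.443), and the helicase subunit gene Mcm5 (0.23 ± 0.09, 0.471).

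The other 8 genes of the cholesterol list were also above 0, with a list median of 0.15, and none of them passed. Sc5d, a late enzyme of the pathway, stood at 0.16 ± 0.08 (SE, limma adjusted p = 0.524) and Idi1, an early one, at 0.17 ± 0.09 (0.537). These 2 genes lie on chromosomes 9 and 13. Cyp51 of the same list lies on chromosome 5, 19.6 Mb from AI506816 by lower coordinates (0.15 ± 0.08, adjusted p = 0.570). Interferon response genes were all below 0, 9 of 9, with a median of -0.34, for example Irf7, a regulator of the response (-0.42 ± 0.22, adjusted p = 0.553), and Ifit3 (-0.43 ± 0.26, 0.595).

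Markers of other tissue in the tumour piece did not pass either. Adipocyte genes had a median of 0.37 with 7 of 7 above 0, including the fat hormone gene Adipoq (0.85 ± 0.45, SE, limma adjusted p = 0.554) and Fabp4, a fatty acid carrier (0.55 ± 0.33, 0.594), both of which turned below 0 with arrays near the threshold left out. Skeletal muscle genes had a median of 0.18 with 10 of 10 above 0 and SEs of 0.54 to 0.74. The mean level of the muscle list ran from 4.11 to 11.82 on the upper side and from 4.201 to 12.40 on the lower, and that of the adipocyte list from 5.74 to 9.85 and from 5.75 to 10.39, so both sides held tumours with much and with little of either. Macrophage genes had a median of 0.06, fibroblast genes 0.09, T and NK cell genes -0.05 and endothelial genes -0.02. Luminal epithelial genes had a median of -0.07, with 4 above 0 and 7 below. Cd24a, an epithelial surface protein, was at 0.10 ± 0.03 (adjusted p = 0.326). Pgr, at -0.34 ± 0.17 (0.541), and Krt8, at -0.08 ± 0.05 (0.591), were among those below. The luminal list lay at a mean level of 9.17 to 10.17 above and 9.68 to 10.37 below, so epithelial markers were abundant on both sides. The medians of the remaining lists were 0.43 for hair and skin, 0.13 for milk proteins, 0.06 for neutrophils, 0.04 for B and plasma cells, 0.04 for oxidative phosphorylation, -0.03 for hypoxia, -0.04 for salivary gland, -0.07 for basal cells, -0.07 for the unfolded protein response and -0.08 for MHC class II.

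Of genes tied to metastasis, 0 of 10 passed, with a median of 0.01, and Nup210, a nuclear pore gene, stood at 0.15 ± 0.07 (SE, limma adjusted p = 0.517). Among immediate early genes, which respond quickly to stress, 8 of 9 were below 0, led by the phosphatase gene Dusp1 (-0.24 ± 0.09, adjusted p = 0.471). With 5 tissue scores (muscle, adipocytes, T and NK cells, fibroblasts, mitosis) as further terms, the medians were 0.012 for DNA replication, -0.0013 for mitosis, -0.06 for interferon response and 0.02 for cholesterol synthesis. The adipocyte median was 0.03 in that fit, and the mitosis and adipocyte lists are among those its scores are built from.

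Inside each side, the remaining spread of AI506816 moved with far more genes than the split itself. This comparison was added after the data were seen. With the split, array set and the AI506816 level centred within sides in one limma fit, 2682 of 12561 genes (21.4%) followed the level within sides, 1655 upward and 1027 downward. The split still called the 6 genes in that fit, 4 higher and 2 lower. Of the 2682 genes, 2529 lay on other chromosomes. Array set 1 alone gave 647 such genes, 513 upward and 134 downward.

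Most listed cell division genes rose with AI506816 within sides over the 56 tumours, and most listed genes of skeletal muscle, macrophages, adipocytes, fibroblasts and T and NK cells fell. In bulk tissue, fewer cells of a type and less RNA per cell cannot be told apart. Over all 12561 genes tested, 1655 passed upward and 1027 downward. All 12 mitosis genes and 12 of 13 replication genes rose, such as the checkpoint kinase gene Bub1, by 1.16 ± 0.21 per unit of AI506816 (both log2, SE, limma adjusted p = 0.000215), and the helicase subunit gene Mcm4, by 0.76 ± 0.13 (8.32e-05). All 10 skeletal muscle genes had negative slopes that passed, as in Ckm, the muscle creatine kinase (-5.05 ± 1.33, adjusted p = 0.00537). So did all 11 macrophage genes, for example Lyz2 (-1.29 ± 0.27, 0.000863), 9 of 12 fibroblast genes, 7 of 8 T and NK cell genes, 6 of 7 adipocyte genes and 4 of 5 MHC class II genes. Of B and plasma cell genes 4 of 7 passed downward, of endothelial genes 4 of 10 and of neutrophil genes 1 of 4. Within array set 1 alone the counts were smaller, at 3 mitosis and 4 replication genes upward and 4 muscle, 3 T and NK cell, 3 B and plasma cell and 1 macrophage gene downward. Of all 12561 genes, 513 passed upward and 134 downward there. No fibroblast, adipocyte, MHC class II, endothelial or neutrophil gene (0 of each list) passed there.

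Array measures were correlated with the spread of AI506816 inside each side when the array sets were pooled. The median of an array's values had r = -0.66 with AI506816 among the 28 high tumours and -0.59 among the 28 low ones, and the 18S mean had -0.69 and -0.41. Their part in the result was not tested. These correlations are descriptions over tumours that share array sets.

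**Figure D5:**
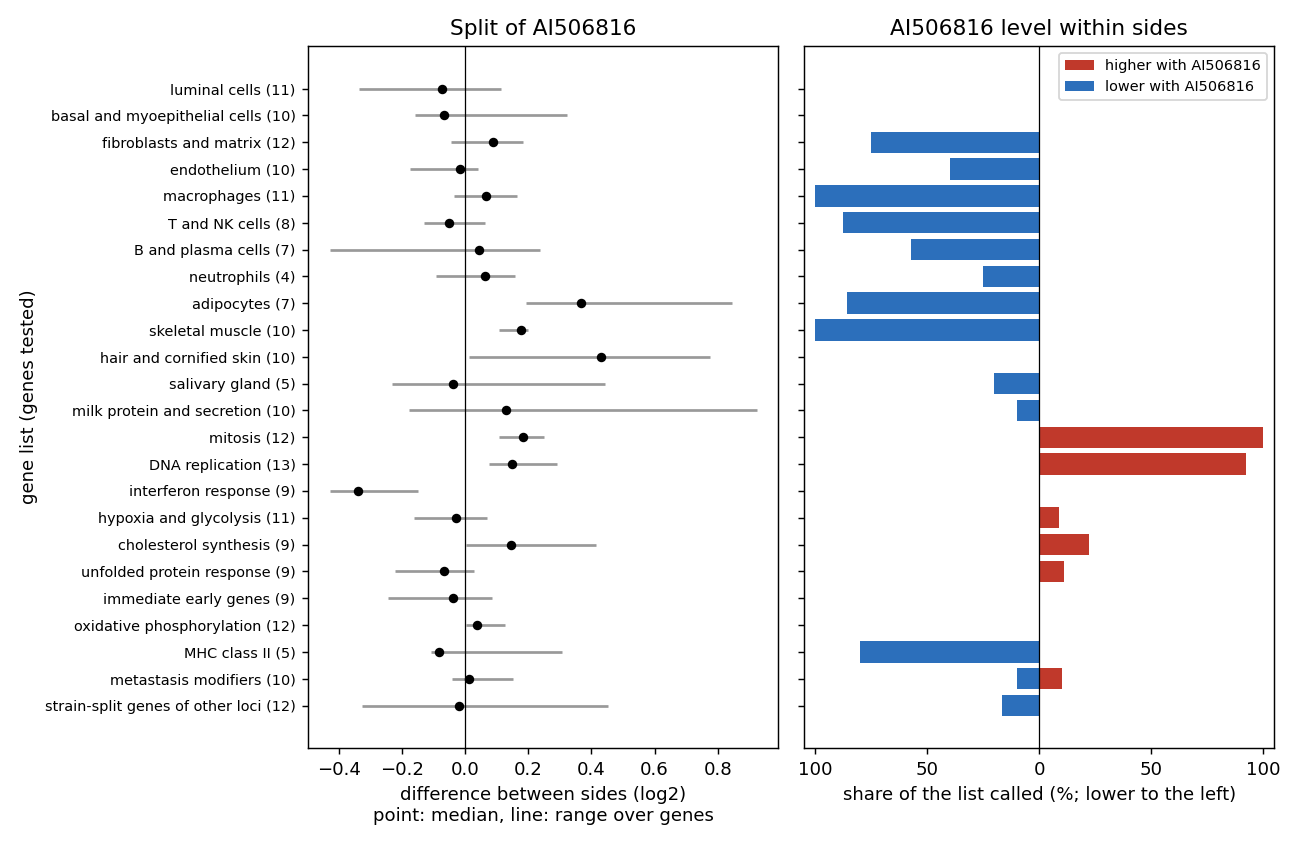
Left, difference between the AI506816 sides (log2) for the genes of each list, with the median as a point and the range as a line. Right, share of each list (%) that followed the AI506816 level within sides, red upward and blue downward, with all mitosis genes to the right and all muscle and macrophage genes to the left.

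Of the 6 genes, Pus7 alone also followed the level within sides, at 0.62 ± 0.12 per unit (log2, SE, limma adjusted p = 0.000366). The slopes of the other 5 lay between -0.24 and 0.08 with adjusted p of 0.704 to 0.879. Pus7 was also the gene most like AI506816 over the 56 tumours, with Pearson r = 0.68 and Spearman rho = 0.74. The next by r were Mettl21a, a methyltransferase gene on chromosome 1 (r = -0.58, rho = -0.48), Dbf4, the activator of the replication kinase Cdc7, on chromosome 5 (0.57, 0.53), Paxip1, a DNA damage response gene on chromosome 5 at 4.06 Mb (0.57, 0.54), and Prkdc, a DNA repair kinase on chromosome 16 (0.57, 0.56). None of these 4 differed between the sides after adjustment (limma adjusted p of 0.421 to 0.471). Paxip1 had r = 0.78 within the high side and 0.72 within the low side, against 0.23 and 0.56 for Pus7. All r are descriptions and the points share array sets.

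Using AI506816 as a continuous measure mixes the split with that spread. It called 538 genes (4.28% of those tested), 491 of them on other chromosomes, and included all 6 genes. Of the genes that followed the level within sides, 427 were among them. Leaving out the arrays within 0.5 of the threshold, which left 18 high and 6 low tumours, called 446 genes, 422 on other chromosomes, and 4 of the 6. The 18S mean was 5.78 in these high and 6.08 in these low tumours, and its part in the result was not tested. Of 12 mitosis genes, 8 were called higher with the continuous measure and 4 without arrays near the threshold. Of 13 DNA replication genes, 8 and 11 were, in the same order. Over all genes tested, 462 of 12561 and 393 of 12527 were called higher. In array set 1 alone the continuous measure called 4 genes, 3 of the 6 and Cd24a on chromosome 10 (adjusted p = 0.0488).

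The 12 arrays with high 18S signal, which the grouping did not use, gave a further look at the 6 genes. Their AI506816 values ran from 6.38 to 7.85, all below 8.1, so the threshold of the other arrays could not be carried over, and AI506816 was used there as a continuous measure. Of these arrays, 2 share an animal number with a kept array of the upper side. One such animal had 8.44 on its kept array and 6.49 on the other, which lies on the low side of the widest gap among the 12 values (6.78 to 7.24). The other animal had 8.49 and 7.33, the latter above that gap. The side read from AI506816 at that gap therefore differed between the 2 arrays of 1 animal, and whether the sides match genotypes was not tested. All 6 genes had slopes of the same sign as in the 56 tumours, as did 49.9% of all genes. Pus7 lay between 7.79 and 8.64, with a slope of 0.29 ± 0.13 per unit (SE, unadjusted limma p = 0.0454, adjusted p = 0.964). Cytl1 had -0.57 ± 0.30 (unadjusted p = 0.0763, adjusted p = 0.964) and Galnt11 -0.09 ± 0.11 (adjusted p = 0.986). The slopes of Fastk, Insig1 and 5730480H06Rik were 0.14 ± 0.11, 0.13 ± 0.22 and 0.04 ± 0.14. By limma 0 of 12561 genes passed (0%), with 607 at an unadjusted p below 0.05.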

How the data were processed

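The deposited table holds 45101 probe sets, 64 of them controls, on 68 arrays, as the authors' log2 RMA values. RMA is named in the submitters' processing notes, and the log2 scale was inferred from values between 1.68 and 14.57. Version, settings and genome build are not given in the sources used here. Of the probe sets, 34958 were listed with 1 gene, 932 with several and the rest not listed; 34754 matched a RefSeq gene (GRCm38.p6), used for names, chromosomes and distances between genes. For each gene the probe set of highest mean was used, and genes whose 95th percentile did not exceed the overall median (5.42) were not tested.

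Array sets were found as splits shared exactly by 20 or more probe sets from 10 or more chromosomes. Each split had to part its means by over 4.5 root mean square SDs and leave no fewer than 15% of arrays on either side. Genes were fitted with limma 3.58.1 in R 4.3.3 (lmFit, eBayes, two-sided) on side and array set, with Benjamini-Hochberg adjustment over all genes at 0.05, after the fit was tested on simulated data. Animal numbers above 4000 form an upper range. Python 3.11.15 served for the rest. The number of arrays limits the precision. The 56 kept arrays bear separate animal numbers, while 2 of the 12 others repeat a number of theirs, and p-values measure the spread between these tumours.

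The groups and 24 gene lists were chosen with earlier results of these data known. The rule for named genes took AI506816, up to 25 genes called on chromosome 5 and 15 each way elsewhere, up to 3 members per list by p, all strain-split genes of other loci, the 5 genes most like AI506816, and the 5 smallest p of the interaction and of the arrays left out. Alternatives changed covariates, arrays, level measure, filter, probe set choice, scaling and variance model.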

Additional observations from a re-analysis of the deposited data

How the results depend on the processing

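Over the alternatives, each of the 6 genes kept its sign. Cytl1 passed in 19 of 22, Pus7 in 18 of 22, Galnt11 in 18 of 21, 5730480H06Rik in 16, Insig1 in 11 and Fastk in 10 of 22. Many alternatives reuse the same arrays and, for these genes, the same probe set, so the counts are not independent checks. Cytl1, with 1 probe set, stood at the same -1.42 under every change of filter or probe set choice and with trend and robust. The 6 genes called became 5 without covariates and 5 with suffix R and number range, 4 with 5 tissue scores, and 6 with eBayes with trend and robust. Fewer arrays gave fewer calls, namely 2 in array set 1 (1 within 10 Mb and 1 beyond), 3 in the lower number range (2 and 1) and 0 in array set 3, array set 4 and the upper number range (limma, with 454 genes at an unadjusted p below 0.05 in the upper range). Leaving out arrays within 0.5 of the threshold called 446 genes, 7 within 10 Mb, 17 beyond on chromosome 5 and 422 elsewhere, and the continuous level 538, with 12, 35 and 491. In array set 1 the continuous level gave 2, 1 and 1. Within 10 Mb, 2 genes passed with tissue scores, with repeated quantile normalization and without arrays of 8.0 to 8.4, and 7 with the probe set of largest SD or with every probe set tested.

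Of the genes that did not pass, only named ones were followed gene by gene, and these turned sign in few fits. Ifit3 was 0.32 in array set 4 and 0.47 in the upper range, Adipoq -0.92 in array set 3 and -0.41 without arrays near the threshold, Fabp4 -0.82 in array set 3, -0.095 in array set 4 and -0.25 without arrays near the threshold, and Cd24a -0.10 in array set 4. Medians of some lists turned too. That of skeletal muscle was 0.18 in the main fit, -0.52 with the continuous level and -1.71 without arrays near the threshold. In the same order, macrophages had 0.06, -0.09 and -0.31 and fibroblasts 0.09, -0.06 and -0.21. Medians of DNA replication (0.22 and 0.42) and interferon response (-0.45 and -0.96) kept their sign in these 2 alternatives. The cause of these changes was not tested. The fits on all arrays with those left out split at their widest gap (7 low, 5 high), on array set 1 with the continuous level, with the level within sides, without arrays of 8.0 to 8.4 and on every probe set were chosen after seeing the data. Fits on all arrays averaged the arrays of an animal, giving 66 animals. There, 2 animals entered with arrays on both sides at 8.1, and 1 at the widest gap. No paired analysis was possible because the labels form 1 group.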

Other observations

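The difference between the AI506816 sides was compared between the 41 tumours of lower animal numbers and the 15 of upper numbers with an interaction term. By limma 0 of 12561 genes passed (0%), with 437 at an unadjusted p below 0.05. The 5 smallest p belonged to Fem1b, an adaptor of a ubiquitin ligase, at -0.38 ± 0.09 (log2, upper minus lower range, SE), Atp6v0d2, a proton pump subunit, at -0.89 ± 0.23, Trappc4 at -0.21 ± 0.06, the macrophage elastase gene Mmp12 at -1.95 ± 0.55 and Cspp1 at -0.24 ± 0.07, each with adjusted p = 0.999. For the 6 genes of chromosome 5 the interaction lay between -0.65 ± 0.50 for Cytl1 and 0.23 ± 0.21 for Insig1, each with adjusted p = 0.999.

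In the 12 arrays left out, the 5 genes with the smallest p for the AI506816 level were Bche, Zfp711, Zfp982, Wnt11 and Ttll6, with slopes of -0.67 ± 0.12, -0.94 ± 0.17, 1.17 ± 0.22, 0.40 ± 0.08 and -0.52 ± 0.11 per unit (log2, SE, limma adjusted p of 0.478 to 0.733). They lie on chromosomes 3, X, 4, 7 and 11.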
